A study of Mus musculus with 12 samples.

Results

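De novo lipogenesis is described here through 10 genes: Acly, Acaca, Acacb and Fasn, the enzymes that turn citrate into palmitate, Me1, a source of NADPH, Pklr, the liver pyruvate kinase, the lipogenic proteins Thrsp and Pnpla3, and the transcription factors Srebf1 (SREBP-1) and Mlxipl (ChREBP). A gene was taken as measured where a probe set carried its symbol and no other. All 10 of the 10 genes were measured, by 22 of the array's 45101 probe sets, and all 10 were among the 13788 tested genes of 18193. The probe set of highest mean level over the 12 arrays stood for its gene, and any others served as a check. Livers came from male C57BL6J mice aged 30 weeks, 1 expression array per mouse and 3 mice in each of 4 groups. Control mice had no antibiotic, and penicillin mice drank water with penicillin at 6.7 mg/L. On chow 13.5% of the energy was fat, and the high-fat groups were fed chow first and a diet with 45% of energy as fat from 17 weeks of age. Groups are named by water and diet (control chow, control high-fat, penicillin chow, penicillin high-fat), and a mouse by its group and replicate number.

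In the liver, de novo lipogenesis makes fatty acids from carbohydrate. Citrate leaves the mitochondrion, is split to acetyl-CoA by ATP citrate lyase, is carboxylated to malonyl-CoA by the acetyl-CoA carboxylases and is assembled by fatty acid synthase with electrons from NADPH. SREBP-1c, an isoform of Srebf1 raised by insulin, and ChREBP, activated by sugar metabolites, are known to drive transcription of these enzymes, and ChREBP is known above all for its action on Pklr. Neither the Srebf1 nor the Mlxipl probe set separates the isoforms of its gene.

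High-fat feeding went with higher expression of 4 of the 10 genes when averaged over both treatments: Me1 rose 1.94-fold, Acacb 1.61-fold, Pklr 1.56-fold and Acaca 1.31-fold. No member fell. Srebf1, the regulator, lay the other way, with a change of -0.48 ± 0.20 on the log2 scale that missed the threshold. For diet within control mice 0 of the 10 genes passed (0.899% of all tested genes), and within penicillin mice 2 did (8.32%). Penicillin left no member past the threshold on either diet, where 0.00725% of all tested genes passed on chow and 0.341% on high-fat diet. Fasn, Acly, Me1 and Acaca had the largest averaged penicillin changes, 0.35 to 0.58 (limma adjusted p from 0.205 to 0.329), with higher means on both diets. Acacb, Thrsp, Pnpla3 and Pklr were also higher on both diets, by smaller averaged amounts, while Srebf1 and Mlxipl were not.

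The sequences just before the transcription starts of these genes, taken from RefSeq on GRCm38.p6, are shown for the members with the smallest adjusted p in the diet comparison (Pklr, Me1), for Fasn and Acly, which varied closely together between mice, and for the factor Mlxipl. Each line gives the 250 bases before 1 start, 5′ to 3′ on the gene's strand, with motif matches on either strand in capitals. The windows are Pklr at chr3:89136373-89136622 (plus strand), Me1 at chr9:86695915-86696164 (minus), Fasn at chr11:120824548-120824797 (minus), Acly at chr11:100528001-100528250 (minus) and Mlxipl at chr5:135089640-135089889 (plus).
Pklr: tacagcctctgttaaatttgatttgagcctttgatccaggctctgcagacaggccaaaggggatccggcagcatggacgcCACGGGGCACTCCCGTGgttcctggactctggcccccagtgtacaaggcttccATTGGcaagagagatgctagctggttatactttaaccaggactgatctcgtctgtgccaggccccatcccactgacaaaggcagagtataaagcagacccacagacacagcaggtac
Me1: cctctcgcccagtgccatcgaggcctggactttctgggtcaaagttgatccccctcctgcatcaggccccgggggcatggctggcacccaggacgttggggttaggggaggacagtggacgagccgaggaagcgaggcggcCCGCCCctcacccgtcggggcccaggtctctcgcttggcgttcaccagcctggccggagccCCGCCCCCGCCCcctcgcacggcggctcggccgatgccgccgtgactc
Fasn: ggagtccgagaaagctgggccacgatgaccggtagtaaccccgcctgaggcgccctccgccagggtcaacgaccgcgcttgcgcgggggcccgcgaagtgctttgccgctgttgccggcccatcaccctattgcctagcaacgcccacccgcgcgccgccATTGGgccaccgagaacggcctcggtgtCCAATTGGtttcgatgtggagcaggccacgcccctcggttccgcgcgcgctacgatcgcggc
Acly: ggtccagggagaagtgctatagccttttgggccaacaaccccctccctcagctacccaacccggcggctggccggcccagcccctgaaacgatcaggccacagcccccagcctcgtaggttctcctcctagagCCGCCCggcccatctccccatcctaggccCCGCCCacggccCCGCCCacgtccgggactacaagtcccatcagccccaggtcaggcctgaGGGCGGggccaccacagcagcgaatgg
Mlxipl: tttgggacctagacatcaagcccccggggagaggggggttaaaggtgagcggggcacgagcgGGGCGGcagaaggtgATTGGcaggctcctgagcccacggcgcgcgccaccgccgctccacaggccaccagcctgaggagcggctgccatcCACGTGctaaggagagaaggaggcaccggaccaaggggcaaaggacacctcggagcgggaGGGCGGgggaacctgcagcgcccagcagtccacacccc

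The searched motifs were a carbohydrate response element of 17 letters, CANGNGNNNNNCNCNTG, the E-box CACGTG, a sterol response element TCACNCCAC, the CCAAT box CCAAT and the GC box GGGCGG. The Pklr window held the only match to the carbohydrate response element among the members' 15 starts, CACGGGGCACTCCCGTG at -170 to -154. This letter pattern was found before 0.454% of all 32851 RefSeq starts. The Pklr match lay upstream of a CCAAT box at -117 to -113 on the opposite strand. Neither the other Pklr window, at chr3:89135892-89136141, nor the window of Acaca held a match to any searched motif. Acaca also varied closely with Fasn and Acly between mice, and its window is not shown. The Mlxipl window held the members' only match to the E-box CACGTG, at -98 to -93, which 6.02% of all starts had. The other Mlxipl start, with its window at chr5:135106641-135106890, held their only match to TCACNCCAC, TCACACCAC at -136 to -128, against 1.05% of all starts. A CCAAT box stood before 9 of the 15 starts, in 8 of the 10 genes (33.8% of all starts), and Fasn had 3, of which those at -62 to -58 and -59 to -55 overlap. GC boxes stood before 6 of the 15 starts, in 5 genes (32.7% of all starts), with 4 in the Acly window and 3 in the Me1 window. A match is a run of letters and not a measured binding site. Only these letter patterns were searched, so E-boxes and response elements spelled otherwise were not counted, and a window without a match may hold them.

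The hepatocyte markers were bright in every group, except Ass1 at 6.92 to 8.17. All 10 hepatocyte markers were among the tested genes, their summed level lay between 17.5 and 17.6 on the log2 scale in all 4 groups, and albumin (Alb) lay between 14.98 and 15.05. Of the adipocyte markers, adiponectin (Adipoq, 3.13 to 3.58) and leptin (Lep, 4.03 to 4.46) stayed below the log2 level of 5.0 used as a floor, while the other 4 on the array lay above it: Fabp4 at 7.93 to 9.72, Retn at 6.12 to 6.46, Lipe at 6.32 to 7.19 and Slc2a4 at 6.76 to 7.43. Array medians ran from 5.52 to 5.59. The signal of 18S ribosomal RNA was 11.8 on the arrays of penicillin chow 2, penicillin chow 3 and penicillin high-fat 2 and 12.7 to 13.9 on the other 9. A score of clock genes was -1.55 in penicillin high-fat 1 and -0.67 to 0.70 in the others. Counts of members past the threshold are also given without the 3 arrays of low 18S signal. In whole liver, fewer cells of a type and less RNA per cell cannot be told apart.

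Throughout, a level is a log2 expression value, a change is a difference of group means on that scale with the standard error of the fit (n = 3 mice per group), and a gene passed the test at a Benjamini-Hochberg adjusted p under 0.05 from limma. Levels of different genes are not set against each other, because probe sets differ in brightness. The comparisons share groups, so their results are not independent of one another.

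**Figure D1:**
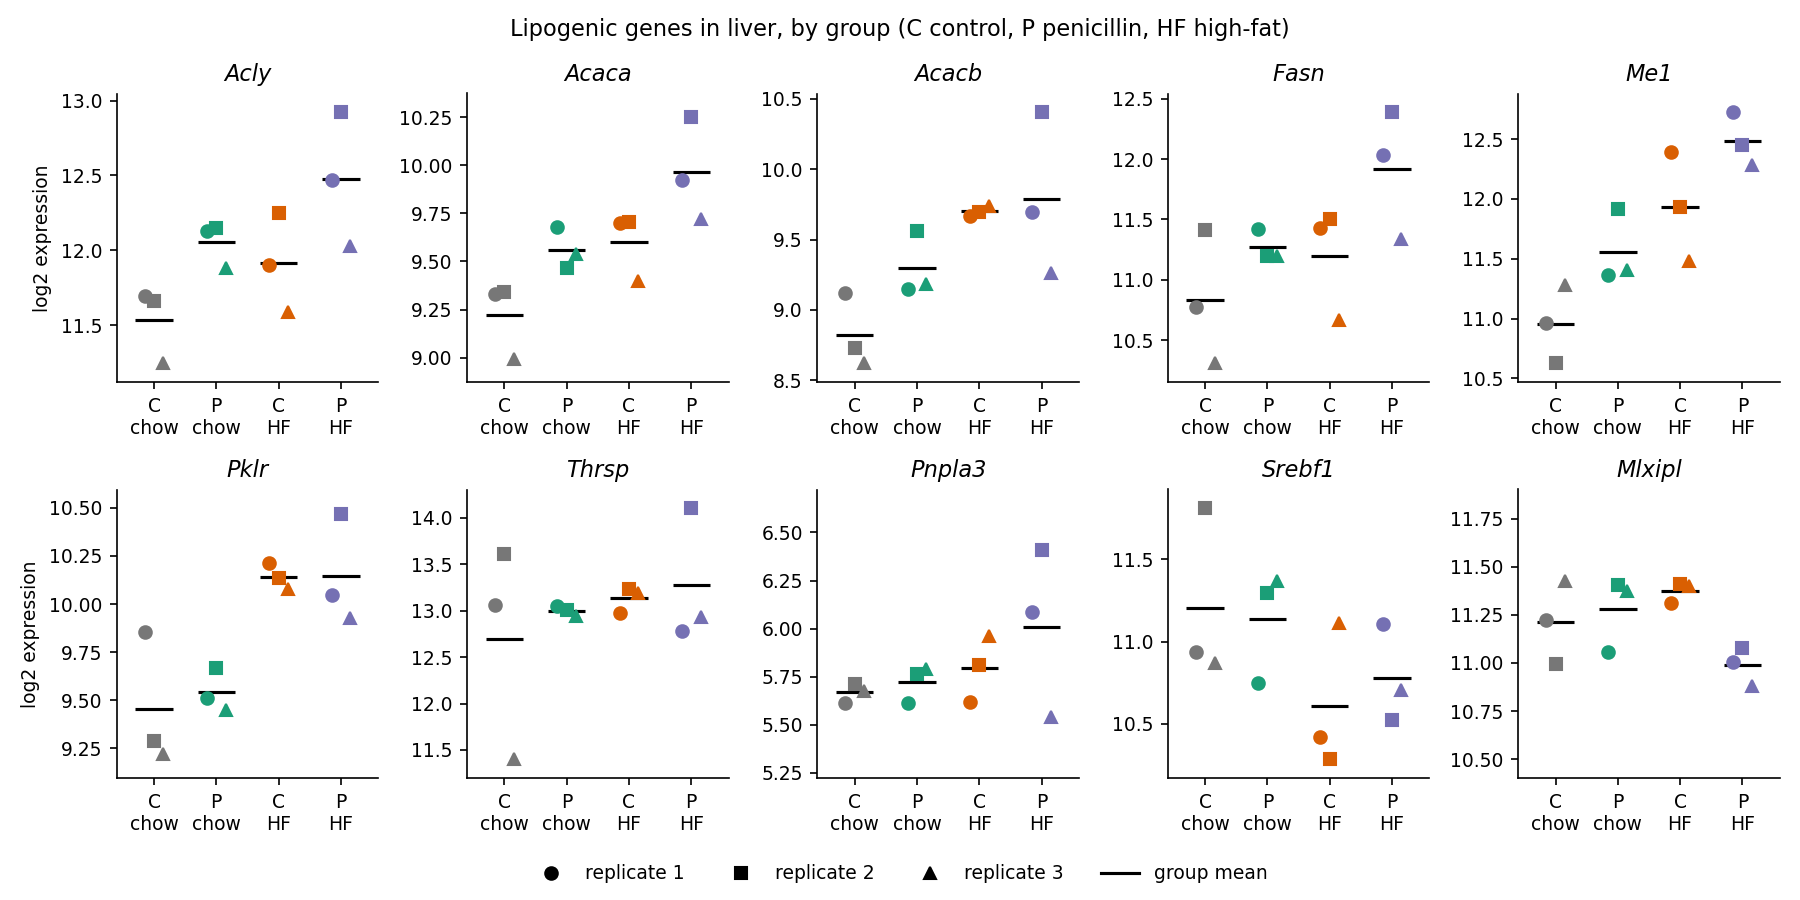
Log2 expression of the 10 lipogenic genes, 1 panel per gene, in the 4 groups (x axis). Each point is 1 mouse, its marker the replicate number, and each bar is the mean of 3 mice. Me1, Acaca, Acacb and Pklr step up from chow to high-fat diet, Srebf1 has its lowest means on high-fat diet, and Mlxipl is lowest in penicillin high-fat mice.

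Me1, the cytosolic malic enzyme, makes NADPH for fatty acid synthesis while turning malate into pyruvate. Its levels were 10.96, 10.63 and 11.28 in control chow mice and 11.36, 11.91 and 11.41 in penicillin chow mice. On high-fat diet they were 12.40, 11.93 and 11.48 in control mice and 12.72, 12.45 and 12.28 in penicillin mice. The lowest high-fat value, from control high-fat 3, lay above every control chow value and above 2 of the 3 penicillin chow values. Averaged over treatments Me1 rose by 0.95 ± 0.17 (95% interval 0.59 to 1.32, limma adjusted p = 0.00396). In control mice the change was 0.98 ± 0.24 (adjusted p = 0.0768), which missed the threshold, and in penicillin mice Me1 rose by 0.93 ± 0.24 (adjusted p = 0.0326). The difference between these 2 changes was -0.05 ± 0.33 (adjusted p = 0.990).

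The other Me1 probe set gave a weaker diet difference in control mice. Its levels on control high-fat arrays were 11.41, 11.32 and 10.48, and the last of these fell inside the control chow range of 10.31 to 10.86. In a fit over all probe sets its diet change was 0.47 ± 0.22 in control mice, 0.92 ± 0.22 in penicillin mice and 0.70 ± 0.15 averaged. Against penicillin it showed a larger difference than the probe set used, 0.98 ± 0.22 on high-fat diet, where all 3 penicillin mice (11.94 to 12.15) lay above all 3 control mice.

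Pklr, which makes pyruvate in the last step of glycolysis, was at 9.86, 9.29 and 9.22 in control chow mice and at 9.51, 9.67 and 9.45 in penicillin chow mice. Its levels were 10.21, 10.13 and 10.08 in control high-fat mice and 10.05, 10.47 and 9.93 in penicillin high-fat mice. All 6 high-fat values exceeded all 6 chow values, with control chow 1 and penicillin high-fat 3 closest to each other. The averaged rise was 0.64 ± 0.12 (95% interval 0.38 to 0.90, limma adjusted p = 0.00508). Pklr rose by 0.60 ± 0.17 in penicillin mice (adjusted p = 0.0478), and the change in control mice was 0.69 ± 0.17 (adjusted p = 0.0811). Both other Pklr probe sets showed the same direction, with averaged changes of 0.46 ± 0.11 and 0.38 ± 0.10. Penicillin made little difference to Pklr in these samples: 0.09 ± 0.17 on chow and 0.01 ± 0.17 on high-fat diet, with 95% intervals of -0.28 to 0.46 and -0.36 to 0.37.

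Acacb encodes the carboxylase at the outer mitochondrial membrane, whose malonyl-CoA blocks entry of fatty acids for oxidation. Control chow mice were at 9.12, 8.73 and 8.62 and penicillin chow mice at 9.15, 9.56 and 9.19. Control high-fat mice lay close together at 9.67, 9.69 and 9.74, while penicillin high-fat mice spread over 9.70, 10.41 and 9.26. Both high-fat groups had higher means than both chow groups, but penicillin high-fat 3 lay within the penicillin chow range. Acacb rose by 0.69 ± 0.17 averaged over treatments (95% interval 0.32 to 1.05, limma adjusted p = 0.0187). The change was 0.88 ± 0.23 in control mice (adjusted p = 0.104) and 0.49 ± 0.23 in penicillin mice (adjusted p = 0.224), neither past the threshold. Leaving out single arrays moved the change in penicillin mice between 0.18, without penicillin high-fat 2, and 0.75, without penicillin high-fat 3. A dim probe set of Acacb, above the floor on 2 arrays, gave -0.12 ± 0.07.

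Acaca, the cytosolic carboxylase that commits acetyl-CoA to fatty acid synthesis, was at 9.33, 9.34 and 8.99 in control chow mice and at 9.68, 9.46 and 9.54 in penicillin chow mice. On high-fat diet it was at 9.70, 9.71 and 9.40 in control mice and at 9.92, 10.25 and 9.72 in penicillin mice. The penicillin high-fat mice stood above all 9 others, and the control chow mice below all others. Averaged over treatments Acaca rose by 0.39 ± 0.10 with diet (95% interval 0.17 to 0.62, limma adjusted p = 0.0251). Its penicillin change was nearly as large, 0.35 ± 0.10 (adjusted p = 0.212), and did not pass. The dim other Acaca probe set, with a mean of 5.27, gave a diet change of -0.12 ± 0.09.

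Fasn, the synthase that builds palmitate, was at 10.77, 11.41 and 10.31 in control chow mice and at 11.42, 11.20 and 11.20 in penicillin chow mice. On high-fat diet it was at 11.43, 11.51 and 10.66 in control mice and at 12.03, 12.39 and 11.33 in penicillin mice. Only penicillin high-fat 1 and 2 stood clear of the other 10 mice, and every pair of groups next to each other in mean overlapped. The averaged changes were 0.51 ± 0.22 for diet (limma adjusted p = 0.147) and 0.58 ± 0.22 for penicillin (adjusted p = 0.329).

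Acly, the lyase that supplies cytosolic acetyl-CoA, was at 11.69, 11.66 and 11.24 in control chow mice and at 12.13, 12.15 and 11.88 in penicillin chow mice. On high-fat diet its levels were 11.90, 12.25 and 11.59 in control mice and 12.47, 12.92 and 12.03 in penicillin mice. On chow the penicillin mice lay above all control mice, and on high-fat diet penicillin high-fat 3 overlapped the control range. The averaged changes were 0.40 ± 0.16 for diet (limma adjusted p = 0.107) and 0.54 ± 0.16 for penicillin (adjusted p = 0.205). The probe set used is of a type that may also bind similar transcripts, and the 2 other bright Acly probe sets gave diet changes of 0.53 ± 0.16 and 0.54 ± 0.18. The 3 dim ones stayed below the floor on all 12 arrays.

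Thrsp, a nuclear protein tied to thyroid hormone and lipogenesis, was at 13.06, 13.61 and 11.40 in control chow mice and between 12.94 and 13.05 in penicillin chow mice. It lay between 12.97 and 13.23 in control high-fat mice and at 12.78, 14.10 and 12.94 in penicillin high-fat mice. The low control chow 3 and the high penicillin high-fat 2 set most of its spread, and the diet change was 0.36 ± 0.33 (limma adjusted p = 0.501). Leaving out single arrays moved that change between 0.04 and 0.59. The other Thrsp probe sets, both above the floor on all 12 arrays, gave 0.46 ± 0.39 and -0.07 ± 0.17, so that the last had the opposite sign. Pnpla3, a lipid droplet protein, was dim, between 5.54 and 6.41, and its diet change of 0.21 ± 0.12 did not pass (adjusted p = 0.280). Its highest values, 6.41 and 6.08, came from penicillin high-fat 2 and 1, and its lowest from penicillin high-fat 3. Leaving out single arrays moved the averaged change between 0.11 and 0.32. Without penicillin high-fat 3 Pnpla3 passed, at 0.32 averaged (limma adjusted p = 0.0291) and at 0.52 in penicillin mice (adjusted p = 0.0337).

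Srebf1 was at 10.94, 11.81 and 10.87 in control chow mice and at 10.75, 11.30 and 11.37 in penicillin chow mice. On high-fat diet it was at 10.42, 10.29 and 11.12 in control mice and at 11.11, 10.53 and 10.71 in penicillin mice. The 4 lowest levels all came from high-fat mice (control 2 and 1, penicillin 2 and 3), but both high-fat groups overlapped both chow groups. The diet change was -0.60 ± 0.28 in control mice (limma adjusted p = 0.350), -0.36 ± 0.28 in penicillin mice (adjusted p = 0.474) and -0.48 ± 0.20 averaged (adjusted p = 0.133). Without the 3 arrays of low 18S signal, which leaves 1 penicillin chow and 2 penicillin high-fat mice, the change of Srebf1 in penicillin mice was 0.16 and the averaged change -0.22 (adjusted p = 0.611). Over all alternatives those changes ran from -0.55 to 0.16 and from -0.61 to -0.22.

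Mlxipl had the narrowest range of the 10 genes, 10.88 to 11.42. Its levels were 11.22, 10.99 and 11.42 in control chow mice and 11.06, 11.40 and 11.38 in penicillin chow mice. On high-fat diet they were 11.31, 11.41 and 11.40 in control mice and 11.00, 11.08 and 10.88 in penicillin mice. The penicillin high-fat mice lay below all 3 control high-fat mice but overlapped both chow groups. The penicillin change on high-fat diet was -0.39 ± 0.12 (95% interval -0.65 to -0.13, limma adjusted p = 0.274), against 0.07 ± 0.12 on chow. The difference between them, -0.45 ± 0.17, was the only interaction of a member with an unadjusted p under 0.05 (0.0206), and its adjusted p was 0.731. The averaged diet change of Mlxipl was -0.07 ± 0.08, with a 95% interval of -0.25 to 0.12.

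**Figure D2:**
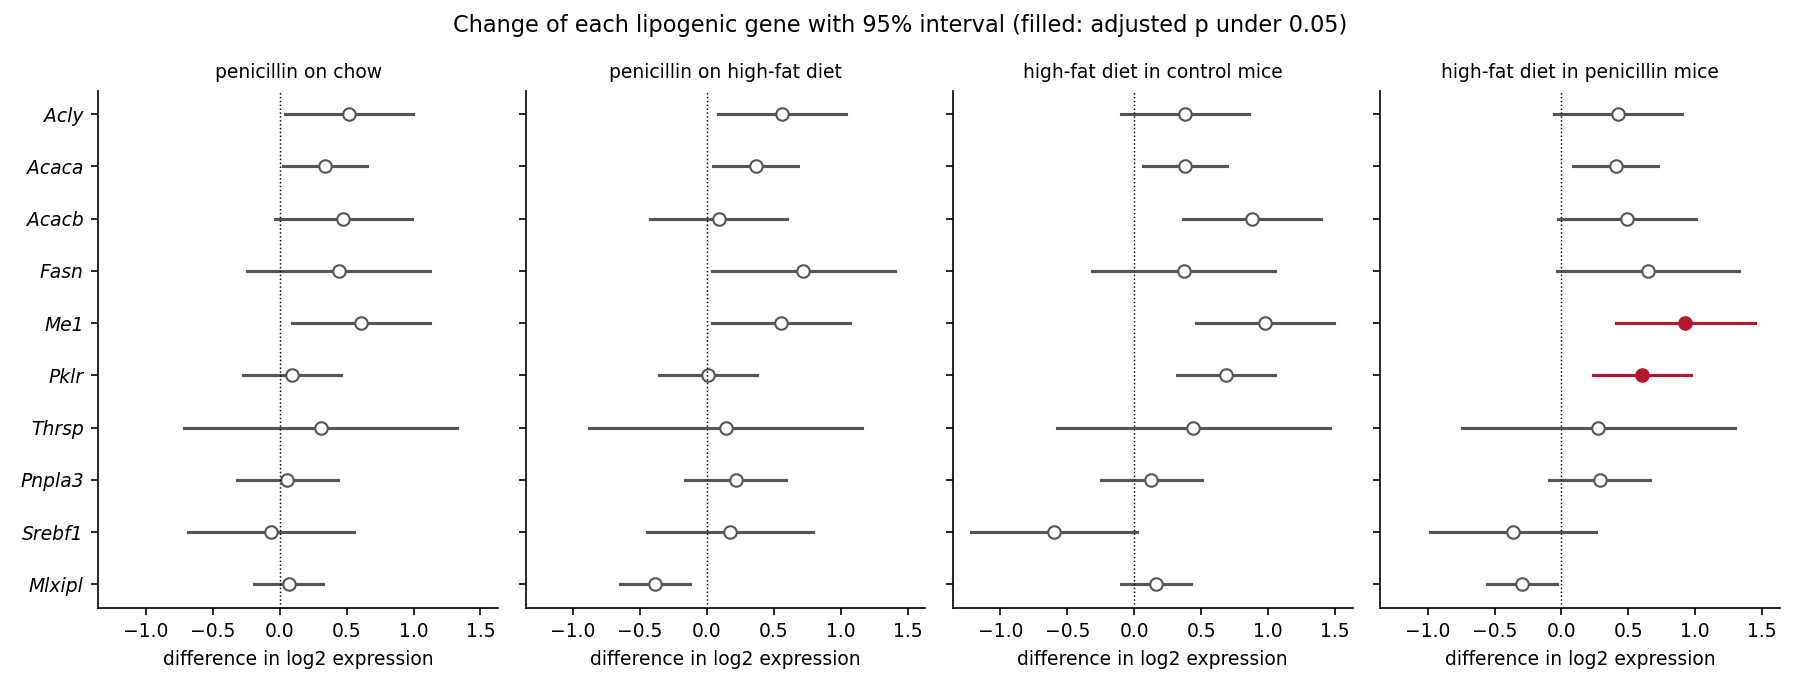
Change of each of the 10 genes on the log2 scale with its 95% interval from limma, in 4 panels: penicillin on chow, penicillin on high-fat diet, high-fat diet in control mice and high-fat diet in penicillin mice. Filled points passed an adjusted p under 0.05, which only Me1 and Pklr did, in the diet comparison of penicillin mice.

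Counted together, 4 of 10 members passed for diet averaged over treatments, all higher, where 14.5% of the 13788 tested genes passed in either direction and 9.63% were higher. A further 3 members, Fasn, Acly and Srebf1, had an unadjusted p under 0.05, so that 7 of 10 did, against 30.1% of genes. The median change of the members was 0.40, against -0.01 over all tested genes. The members were chosen with earlier results of these data known, so these shares and medians are a description. In penicillin mice 2 of 10 passed, both higher, where 8.32% of all genes passed and 6.43% were higher, and 4 had an unadjusted p under 0.05 (24.5% of genes). Acaca, Me1 and Pklr did not overlap between those groups in the higher direction, as was so for 15.6% of all genes. In control mice limma called 0 of 10 members where it called 0.899% of genes, and 4 members had an unadjusted p under 0.05 (15.1% of genes). Here Acaca, Acacb, Me1 and Pklr had no overlap between groups, higher on high-fat diet, as had 12.4% of genes. The member medians were 0.38 in control and 0.41 in penicillin mice, against -0.0047 and -0.0069 over all tested genes.

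For penicillin on chow limma called 0 of 10 members, where it called 0.00725% of genes (1 gene), and 3 members (Me1, Acly and Acaca) had an unadjusted p under 0.05, as had 7.62% of genes. Acaca, Acacb, Acly and Me1 were higher in all 3 penicillin chow mice than in all control chow mice, a pattern that 4.79% of genes showed. Their changes were 0.34 ± 0.14, 0.47 ± 0.23, 0.52 ± 0.22 and 0.60 ± 0.24, with adjusted p from 0.618 to 0.669. On high-fat diet 0 of 10 passed where 0.341% of genes did, and 5 (Fasn, Acaca, Acly, Me1 and Mlxipl) had an unadjusted p under 0.05 (10.1% of genes). Only Acaca was higher without overlap there (9.50% of genes) and only Mlxipl lower (7.85% of genes). Averaged over diets 0 of 10 passed where 0.145% of genes did, with 4 at an unadjusted p under 0.05 (11.9% of genes). The interaction likewise gave 0 of 10, against 0.0435% of genes, with 1 member at an unadjusted p under 0.05 (6.11% of genes). No member passed in any of these 4 penicillin comparisons under any alternative processing that was run.

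Averaged over treatments, Me1, Pklr and Acacb passed in all 12 fits that left out 1 array, and Acaca in 7, with its adjusted p at 0.0532 without control chow 3, 0.0551 without penicillin chow 2, 0.05003 without penicillin chow 3, 0.0622 without control high-fat 1 and 0.0627 without control high-fat 2. In penicillin mice Me1 passed in 7 of 12 such fits and was lost without penicillin chow 1 or 3 or any penicillin high-fat mouse (adjusted p from 0.0511 to 0.126). Pklr passed in 3 of 12, the losses coming without control chow 2, any penicillin chow or control high-fat mouse, penicillin high-fat 1 or penicillin high-fat 2 (highest adjusted p 0.134). Without the 3 arrays of low 18S signal 3 members passed for diet averaged over treatments, with Acaca at 0.26 (adjusted p = 0.166), and 0 passed in penicillin mice. That fit holds 1 penicillin chow and 2 penicillin high-fat mice, and the lone mouse is assumed to vary like the other groups. With the clock score in the fit the Me1 change in penicillin mice was 0.58 (adjusted p = 0.126) in place of 0.93, and neither Me1 nor Pklr passed there.

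**Figure D3:**
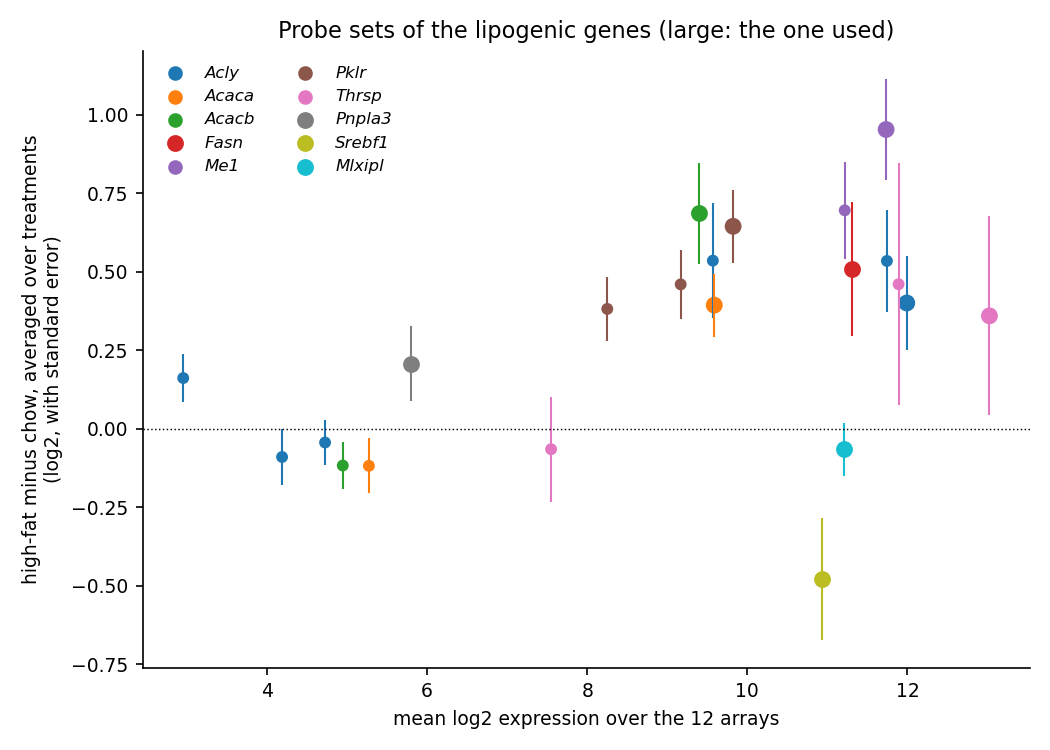
All 22 probe sets of the 10 genes: mean log2 level over 12 arrays (x axis) against the change with high-fat diet averaged over treatments, with its standard error (y axis, log2). Large symbols are the probe sets used. The brighter probe sets of Acly, Me1 and Pklr lie above 0, and the dim ones of Acaca, Acacb and Acly lie between -0.12 and 0.16.

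Between mice of the same group, the genes did not vary as 1 block. With each group's mean removed, the 45 pairs of members had a median Pearson correlation of 0.36 over the 12 arrays, from -0.48 to 0.90. Fasn, Acaca and Acly formed the tightest set, with correlations of 0.86 to 0.90 (rho 0.78 to 0.90), and 0.78 to 0.87 after leaving out penicillin high-fat 3 and 2, the arrays farthest from the median of the members' mean. Acacb and Pklr correlated at 0.87 both with and without those 2 arrays. Me1 was nearly unrelated to Fasn (0.06) and Acaca (0.00), and its correlation with Thrsp was -0.48. The 9 pairs of Srebf1 ranged from -0.38 to 0.24 and those of Mlxipl from -0.43 to 0.46. Without penicillin high-fat 3 and 2 Mlxipl stood at -0.70 with Fasn, -0.72 with Acaca and -0.68 with Thrsp, and Srebf1 with Pnpla3 went from 0.22 to 0.71. The correlation of Pnpla3 with Acacb went from 0.76 over all arrays to 0.03 without them and that with Acaca from 0.42 to -0.61, while that with Mlxipl was 0.44 and 0.36. These values describe 12 livers that share 1 normalisation and have 3 mice a group.

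**Figure D4:**
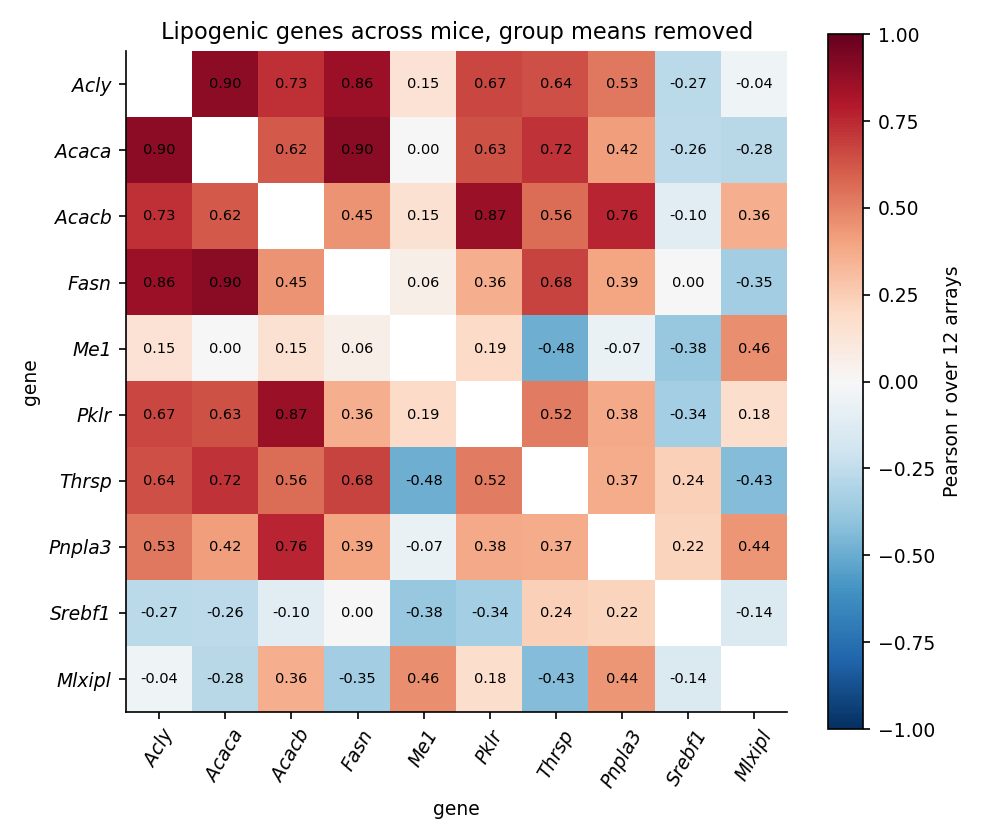
Pearson correlation between each pair of the 10 genes over 12 arrays, after the mean of each group was removed (colour scale from -1 to 1). Fasn, Acaca and Acly form a block at 0.86 or above, Acacb and Pklr stand at 0.87, and the row of Srebf1 stays near or below 0 with most genes. The row of Mlxipl is mixed, from -0.43 with Thrsp to 0.46 with Me1.

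Single mice carried much of this spread. Penicillin high-fat 2 had the highest level of all 12 mice for 7 of the 10 genes, and control chow 3 the lowest for 6. Within the penicillin high-fat group, replicate 2 was highest for 8 genes and replicate 3 lowest for 8. The mean of the members, each centred on its own mean, was 0.31, 0.62 and -0.02 in penicillin high-fat mice 1 to 3 and -0.22, -0.16 and -0.58 in control chow mice 1 to 3. It stayed between -0.11 and 0.11 in the other 2 groups. Penicillin high-fat 2 is also 1 of the 3 arrays of low 18S signal, while penicillin chow 2 and 3, the others of them, had member means of 0.06 and -0.07.

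Among the 13778 other tested genes, those whose levels most resembled the members' mean over the 12 arrays were Mknk2 (r = 0.92, rho = 0.87), Cfap36 (0.88, rho 0.77), Esyt2 (0.87, rho 0.88), Bcas2 (0.86, rho 0.83) and Pgd (0.86, rho 0.82). Leaving out penicillin high-fat 2 and control chow 3 lowered r to between 0.57 for Cfap36 and 0.80 for Pgd. With group means removed the closest were Msrb2 (r = 0.98, rho = 0.95), Msmo1 (0.95, rho 0.90), Gnmt (0.95, rho 0.94), Fdps (0.94, rho 0.90) and Dhcr7 (0.94, rho 0.93). Without penicillin high-fat 3 and 2 these stood between 0.84 and 0.95. They are the highest of many values and are given as a description.

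The genes around the pathway were read from lists for its regulation, fuel supply and products. These lists were chosen with earlier results of these data known. The shares of all tested genes beside their counts are therefore a description and not a test. Of 12 tested genes that handle SREBP-1c, 1 rose and 1 fell with diet averaged over treatments, where 14.5% of all tested genes passed. Insig2, which holds SREBPs in the endoplasmic reticulum, rose by 0.67 ± 0.18 (limma adjusted p = 0.0297), and Srebf2, the sterol-regulating relative of Srebf1, fell by 0.25 (adjusted p = 0.0262). Insig2 passed in 4 of 12 fits without 1 array and Srebf2 in 7, with highest adjusted p of 0.0693 without control high-fat 2 and 0.0617 without control chow 2. The list's median change was -0.03.

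Of 11 ChREBP partners and carbohydrate-response genes, 5 rose with diet averaged over treatments and 0 fell, where 9.63% of all tested genes rose. Txnip, a sensor of glucose flux and known ChREBP target, rose by 0.96 ± 0.10 (limma adjusted p = 0.000249), and Khk, the fructose kinase, by 0.54 ± 0.05 (adjusted p = 0.000179). Gckr, a regulator of hepatic glucose use, rose by 0.29 ± 0.07, and Arrdc4, a relative of Txnip, by 0.69 ± 0.17. Txnip and Khk also passed within control mice (0.79 and 0.54) and within penicillin mice (1.14 and 0.53), beside an averaged change of -0.07 in Mlxipl itself. Txnip was lost in 4 of 12 fits without 1 array in control mice (highest adjusted p 0.130, without control high-fat 2). The fifth gene, Mlxip, the ChREBP relative MondoA, rose by 0.40 ± 0.10, and was lost in 5 of 12 fits (highest adjusted p 0.0563, without penicillin chow 3). Arrdc4 lost its averaged call without single arrays in 2 of 12 fits (highest adjusted p 0.0535, without penicillin high-fat 3).

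Of 14 genes for citrate, acetyl-CoA and NADPH supply, 5 rose and 0 fell with averaged diet, where 9.63% of all tested genes rose. Pgd, the NADPH-making dehydrogenase of the pentose phosphate path, rose by 0.47 ± 0.10 (limma adjusted p = 0.00964) beside Me1. Pdk4, which shuts pyruvate dehydrogenase, rose by 1.72 ± 0.29 (adjusted p = 0.00314). It stood at 5.04 to 5.85 on chow, at 5.89 to 6.72 in control high-fat mice and at 9.06, 7.10 and 7.61 in penicillin high-fat mice. Pdha1, a subunit of that dehydrogenase, rose by 0.22 ± 0.05 and Pdk1, a kinase of it, by 0.38 ± 0.10. Pdk1 was lost in 4 of 12 fits without 1 array (highest adjusted p 0.0622, without control high-fat 1). The fifth, Tkt, a transketolase, rose by 0.24 ± 0.07 and was lost in 8 of 12 (highest adjusted p 0.0864, without control high-fat 1).

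Desaturation and elongation, which reshape palmitate and dietary fatty acids, had 5 of 9 genes higher and 0 lower, with a list median of 0.41. Among all tested genes 9.63% were higher with averaged diet. Elovl5 rose by 0.89 ± 0.10, Fads2 by 0.70 ± 0.11, Elovl2 by 0.68 ± 0.08 and Fads1 by 0.58 ± 0.08, with limma adjusted p from 0.000577 to 0.00214. These 4 serve long polyunsaturated fatty acids, and they also passed within each treatment. In control mice those calls were lost without single arrays in 4 to 9 of 12 fits, with highest adjusted p of 0.0804 to 0.167, each without control high-fat 2. In penicillin mice only Fads2 was lost, in 3 of 12 fits (highest adjusted p 0.0852, without penicillin chow 2). With the clock score in the fit Elovl2 and Fads1 were not called there (adjusted p 0.0563 and 0.0537). The fifth gene, Scd1, the main liver desaturase of new saturated fatty acids, rose by 0.31 ± 0.06.

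Triglyceride assembly had 5 of 8 genes higher and 0 lower with averaged diet, where 9.63% of all tested genes were higher. Lpin1, a phosphatidate phosphatase and coactivator, rose by 1.80 ± 0.27 (limma adjusted p = 0.00173), Mogat1, a monoacylglycerol acyltransferase, by 1.18 ± 0.15 (adjusted p = 0.000678), Lpin2 by 0.67 ± 0.12 and Agpat3 by 0.20 ± 0.05. The fifth, Gpam, which starts glycerolipid synthesis, rose by 0.51 ± 0.15. Without control high-fat 1 neither Agpat3 nor Gpam passed (adjusted p 0.0693 and 0.0864), and they were lost in 7 and 9 of 12 such fits. Mogat1 was the only gene of the 7 lists to pass a penicillin comparison. Its levels were 6.71, 6.31 and 6.05 in control high-fat mice and 7.63, 8.15 and 8.11 in penicillin high-fat mice, without overlap. It rose by 1.60 ± 0.21 with penicillin on high-fat diet (adjusted p = 0.00728) and passed there in all 12 fits without 1 array. The averaged penicillin rise of 0.89 ± 0.15 (adjusted p = 0.0460) held in 3 of 12, with a highest adjusted p of 0.138 without control chow 1, and the interaction of 1.43 ± 0.29 did not pass (adjusted p = 0.190).

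Among 11 genes of malonyl-CoA control and AMPK, 0 rose and 1 fell with averaged diet. That is no larger a share than the 14.5% of all tested genes that passed. Mid1ip1, a relative of Thrsp that activates acetyl-CoA carboxylase, fell by 0.56 (limma adjusted p = 0.0196), with 0.0510 without control high-fat 1. In the list of fasting and insulin genes 5 of 10 rose and 0 fell, where 9.63% of all tested genes rose. Its median of 0.93 was the highest of the lists. Fgf21, a hormone secreted by liver, rose by 1.94 ± 0.28 (adjusted p = 0.00147), Cdkn1a, a cell cycle inhibitor, by 1.20 ± 0.23 and Ppargc1a, a coactivator of gluconeogenesis, by 1.03 ± 0.15, beside Pdk4, which belongs to both lists, and Angptl4, a lipase inhibitor, by 0.84 ± 0.19. Fgf21 was at 5.91 to 6.59 on chow, at 7.52 to 8.04 in control high-fat mice and at 9.997, 7.95 and 8.63 in penicillin high-fat mice. Penicillin high-fat 1, with the highest Fgf21 and Pdk4, is the array with the lowest clock score. With the clock score in the fit both still passed for averaged diet (adjusted p 0.00659 for Fgf21 and 0.00342 for Pdk4). In control mice alone 0 of these 10 passed, where 0.899% of all tested genes did. An unadjusted p under 0.05 was reached by 7, against 15.1% of all tested genes.

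**Figure D5:**
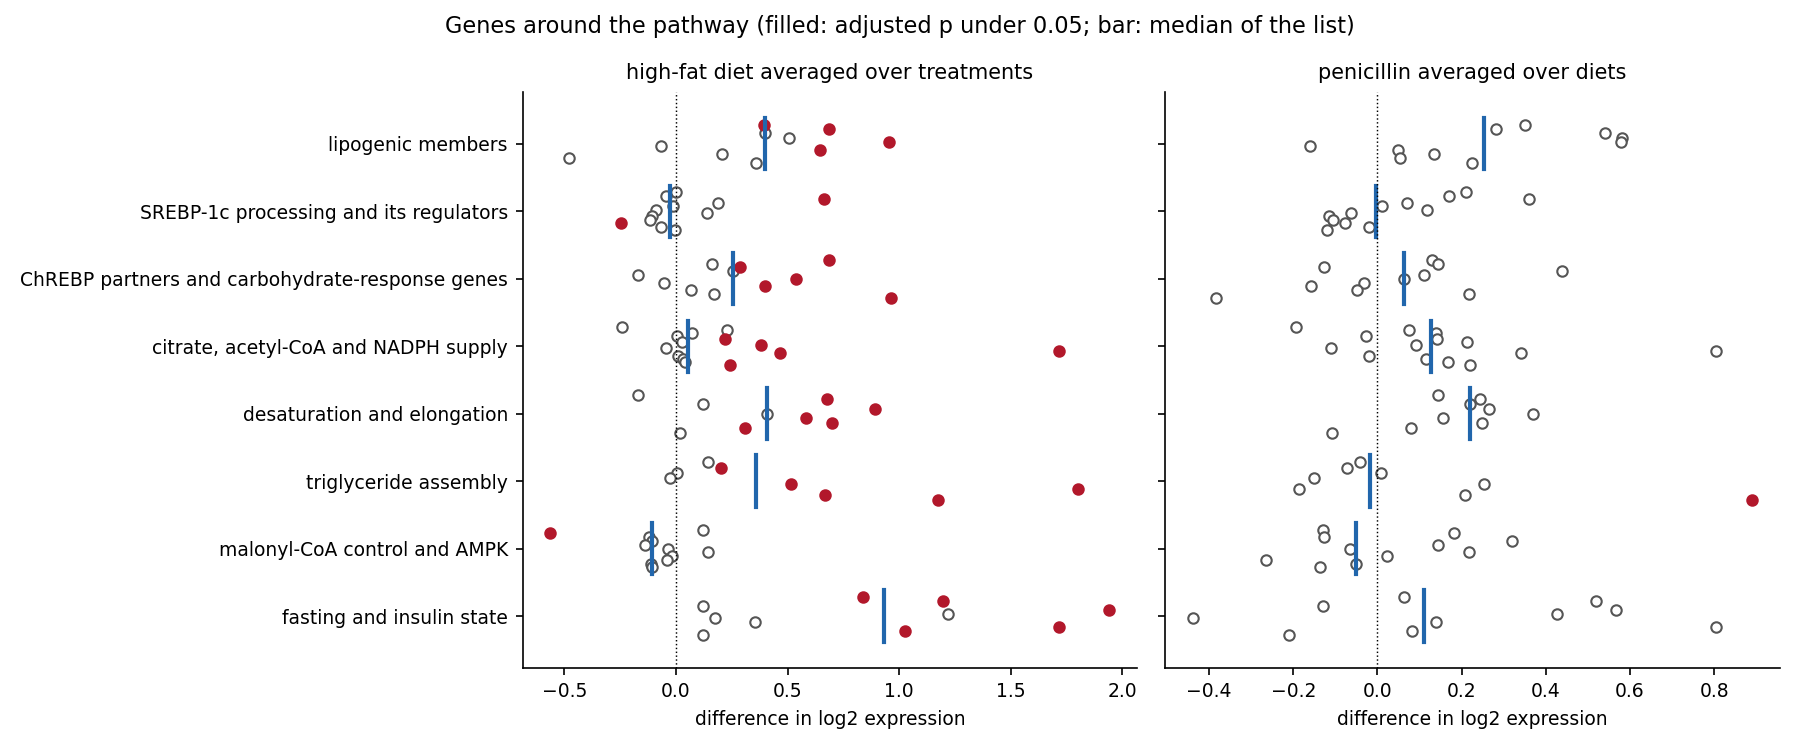
Change of every tested gene of the 10 lipogenic members and the 7 surrounding lists, for high-fat diet averaged over treatments and for penicillin averaged over diets (log2, with a different scale in each panel). Each point is 1 gene, points past an adjusted p under 0.05 are filled, and the bar is the median. Diet medians run from -0.11 for malonyl-CoA control to 0.93 for fasting and insulin genes, and Mogat1 is the only filled point for penicillin.

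Cell markers moved beside these results. For diet averaged over treatments 14.5% of all tested genes passed, and 9.63% were higher. Of 10 macrophage and Kupffer cell markers 9 rose with diet averaged over treatments (median 0.68), and their summed level was, in control mice, 13.2 to 13.4 on chow and 13.7 to 13.8 on high-fat diet and, in penicillin mice, 12.6 to 13.1 on chow and 13.2 to 13.8 on high-fat diet. With penicillin on chow, where the members' median change was 0.32, the median of these markers was -0.53. Their mean level, each centred on its own mean over the 12 arrays, was -0.24, -0.65 and -0.87 in penicillin chow mice 1 to 3, of which 2 and 3 are arrays of low 18S signal. Of 8 sinusoidal endothelial markers 5 rose with diet (median 0.35) and of 8 stellate cell markers 4 (median 0.36). Of 4 tested adipocyte markers the hormone-sensitive lipase gene Lipe fell by 0.38 and Fabp4, which macrophages also express, rose by 1.11 ± 0.16, standing at 8.94 to 9.72 on high-fat diet and at 7.93 to 8.70 on chow. Hepatocyte markers had 0 higher and 1 lower of 10 (Cps1, which fell by 0.26), with a median of 0.0050. With penicillin on chow, medians below 0 were not particular to macrophage markers. They were -0.31 for endothelial, -0.21 for stellate, -0.25 for cholangiocyte and -0.11 for T and B cell markers. Hepatocyte and adipocyte medians there were 0.01 and 0.11, and no marker passed in that comparison. An unadjusted limma p under 0.05 was reached by 9 of 10 macrophage, 4 of 8 endothelial, 4 of 8 stellate and 1 of 3 cholangiocyte markers. None of the T and B cell, hepatocyte or adipocyte markers reached it, and 7.62% of all tested genes did. The part of other cells in the members' changes was not tested.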

How the data were processed

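Values are log2 expression per probe set as the authors deposited them, 45101 probe sets on each of 12 arrays. Per the submitters' processing notes they came from RMA and affy (versions not given in the sources used). RMA brings all arrays to 1 intensity distribution, so changes are relative to the bulk of genes, and dim values are compressed. Arrays have no read depth, and their number limits how precisely a change is known, with a median standard error of 0.10 for differences between groups and 0.15 for the interaction. The labels call the 3 mice of a group biological replicates. The p-values set differences of group means against the spread between mice within groups, pooled over the 4 groups and moderated across genes. Scan date, cage and litter were not used here.

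GEO's platform annotation gave 34945 probe sets 1 symbol, 932 several and 9160 none, besides 64 controls. A RefSeq table of GRCm38.p6 held the gene IDs of 34741 probe sets and altered 0 symbols. Genes above the 40th percentile (log2 5.00) on at least 3 arrays were tested. One set of 4 group means was fitted to all 12 arrays with limma 3.58.1 in R 4.3.3 (lmFit, contrasts, eBayes, 8 residual degrees of freedom), adjusted by Benjamini-Hochberg over 13788 genes for each of 7 comparisons. The script was tested on simulated data. Named were all members and, per list and comparison, genes past the threshold (beyond 4, the 4 of smallest p) and, for resemblance, the 5 highest correlations of each kind. Members and lists were chosen with earlier results of these data known. Some listed genes are not reported here. Promoter windows came from a RefSeq table of GRCm38.p6, in which all 10 members were found, and were searched on both strands.

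Numbers shared by mice of different groups were checked: same-numbered mice of 2 groups correlated, in their deviations from the group means, at -0.23 to 0.17 in 18 pairs, and 3 pairs exceeded 0.1. Alternatives changed the dim-gene filter, the probe set rule, the normalisation (cyclic loess or median centring), the variance model (array weights, or trend and robust), the arrays in the fit (only the 6 compared, or each array left out) and the threshold, or added a replicate block, 18S or clock score. Leaving out the 3 arrays of low 18S signal was added after seeing the data.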

Additional observations from a re-analysis of the deposited data

How the results depend on the processing

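No result of a member past the threshold reversed under any alternative. The directions of listed genes and markers under the alternatives were not compared. Of 1853 values of single members, 1722 kept direction and side of the threshold, 35 lost the call, 18 gained it and 78 changed sign while below it. For diet averaged over treatments Me1 and Pklr passed in 26 of 26 alternatives, Acacb in 24 and Acaca in 18. The 4 members counted there became 2 with the mean of all probe sets of a gene (Acaca 0.14, Acacb 0.28) and 2 at an adjusted p under 0.01, and 3 to 6 without single arrays. The 2 members counted for diet in penicillin mice became 1 without the filter, with the mean of all probe sets, with cyclic loess, with only the 6 arrays compared and with 18S as a covariate, and 0 with the clock score, at an adjusted p under 0.01 and without the 3 arrays of low 18S signal, with 0 to 2 when single arrays were left out. The 0 members for diet in control mice became 3 with array weights, 2 at an adjusted p under 0.10, 1 with only the 6 arrays compared, 1 with the clock score and 1 without the 3 low-18S arrays, with 0 to 1 when single arrays were left out. With the clock score Insig2, Srebf2, Mlxip, Tkt, Pdk1, Gpam and Mid1ip1 lost their calls for averaged diet (adjusted p from 0.0591 to 0.132). Array weights also brought Srebf1 past the threshold for averaged diet (-0.60, adjusted p = 0.0431) and Mlxipl for diet in penicillin mice (-0.38, adjusted p = 0.0382). Calls among all tested genes moved with the settings too. For diet in control mice they went from 124 to 571 with array weights. At an adjusted p under 0.01 they went from 1997 to 697 for averaged diet and from 1147 to 366 in penicillin mice. The causes were not tested.

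With a replicate block the members counted were 6 for averaged diet (adding Acly, adjusted p = 0.0140, and Fasn, adjusted p = 0.0366), 2 for diet in penicillin mice and 0 in the other 5 comparisons. The share of all tested genes that passed with a replicate block is not reported here. Over all settings, 697 to 3050 tested genes passed for averaged diet. The labels give no pairing beyond the number.

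Without the 3 low-18S arrays, 1 penicillin chow mouse (assumed to vary like the other groups) and 2 penicillin high-fat mice are left. That lone mouse is penicillin chow 1. The mean of 14 acute-phase genes, each centred on its own mean over the 12 arrays, was 0.97 in it. In penicillin chow 2 and 3 it was -0.37 and -0.31. Because 1 mouse stands for its group, counts over all genes in that fit are not given, and the part of the acute-phase level was not tested. The list counts for averaged diet ranged over 0 to 2 for SREBP regulators, 2 to 6 for ChREBP partners, 2 to 5 for citrate and NADPH supply, 4 to 6 for desaturation, 3 to 5 for triglyceride assembly, 0 to 2 for malonyl-CoA control and 4 to 6 for fasting genes. Pnpla3 was not tested under the filter at the 60th percentile, and only the 6 arrays compared could not be fitted for the interaction and the averages. With 3 mice a group, single members with changes near 0.4 lie close to the threshold, dim probe sets (Pnpla3 and the dim sets of Acaca, Acacb and Acly) bound what can be read from them, and protein and lipid flux were not measured.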
